A study of Mus musculus with 2 samples.

Results

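Chemokine ligands are the small secreted proteins that steer leukocytes, and the rows of both matrices that carry a Ccl, Cxcl, Cx3cl or Xcl symbol followed by a number were taken as members. The rule found 44 of 31053 gene rows, under 39 symbols, since Ccl19, Ccl21 and Ccl27 symbols occur on more than 1 row. Of these rows 35 had at least 1 UMI (a read family counted as 1 RNA molecule) in the cells kept, 9 had none, and 33 had at least 100 UMIs in cells that could be given a lineage. All 9 rows without UMIs carried Ccl19, Ccl21 or Ccl27 symbols, a family of near-identical genes on chromosome 4 and on unplaced sequence that share reads. The values of Ccl19, Ccl21a and Ccl27a are therefore uncertain. Ccl26 and Ccl28 were the 2 rows with fewer than 100 UMIs, and Cxcl11 was not analysed here.

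Chemokines act through G protein-coupled receptors, and the pattern of receptors on a leukocyte decides which ligands it follows. CXC ligands with a Glu-Leu-Arg motif attract neutrophils, CC ligands attract mostly monocytes, T cells, eosinophils and dendritic cells, and a homeostatic group positions cells in resting tissue and lymphoid organs. In the lung, macrophages, endothelium, fibroblasts and epithelium all make chemokines, and bleomycin injury is a common setting in which they are studied.

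The study compared lungs of Pclaf WT mice with those of germline Pclaf KO mice, both 8 to 10 weeks old and both 1 week after bleomycin at 1.35 U/kg by the design text, a dose on which the sources used here differ. Pclaf encodes a PCNA-binding factor of replicating cells. Each genotype gave 1 single-cell 3' library (10x Genomics) of cells stained for Cd31, Cd45 and Epcam and labelled as sorted epithelial cells, and how many mice were pooled is not given in the sources used here. With 1 library per genotype no test between genotypes is possible. Genotype, animal, sort and depth cannot be told apart, and every interval below covers counting error only.

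The WT library held 30669 barcodes and the KO library 17172, against 16000 cells per group that the protocol gives as loaded. After filtering, 30187 WT cells with a median of 2127 UMIs and 15637 KO cells with a median of 5957 were kept. A lineage was given to 22473 WT and 13180 KO cells by 8 markers per lineage, and a type by 6 markers per type, with no chemokine or receptor among them. The label of sorted epithelial cells did not hold in the WT library, where 48.8% of gated cells were immune, 35.2% endothelial, 10.96% mesenchymal and 4.65% epithelial. The KO library was 72.5% epithelial, 19.4% mesenchymal, 3.46% immune and 3.38% endothelial. These classes are cuts on marker counts, and 16.3% of gated WT and 11.8% of gated KO cells lay at the cut. The targeted gene was at 39.3 counts per 1e+06 UMIs (CPM) in kept WT cells and at 5.19 CPM in kept KO cells. In epithelial cells alone Pclaf was at 6.94 CPM (41 UMIs) in WT and at 4.62 CPM (349 UMIs) in the library labelled KO. A 3' tag can lie outside the changed part of a gene, and where these UMIs come from was not tested. Xist was at 254 CPM in WT and 498 in KO beside the Y-linked Ddx3y at 74.0 and 24.0 CPM, although the methods name male mice. The libraries shared 138 cell barcodes among kept cells.

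The makeup of the libraries differed, and so did the cells that held most chemokine UMIs. Chemokine ligands took 0.264% of all UMIs of kept WT cells and 0.428% of those of kept KO cells. In WT, immune cells supplied 72.9% of gated chemokine UMIs, endothelial cells 10.7%, epithelial cells 10.4% and mesenchymal cells 5.93%. In KO, epithelial cells supplied 91.7%, of which 94.2% was the single gene Cxcl15. Levels per cell type, and not these shares, are therefore described from here on, always as CPM of that type's UMIs.

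The heat map of levels by cell type shows a block of CC ligands in myeloid cells and separate stromal and epithelial ligands. The lineage with the highest level was immune for 17 of 34 members in WT and for 15 of 32 in KO. Epithelial cells led for 7 and 5 members, mesenchymal cells for 5 and 6, endothelial cells for 3 and 4, and mesothelial cells for 2 in each library. Of the 32 members with a leading lineage in both libraries, 26 had the same one. The other 6 were Cxcl3, Cxcl13, Ccl7, Ccl8, Ccl25 and Ccl27a. The leading type was the same for 14 members, where only types with at least 20 cells were ranked.

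**Figure D1:**
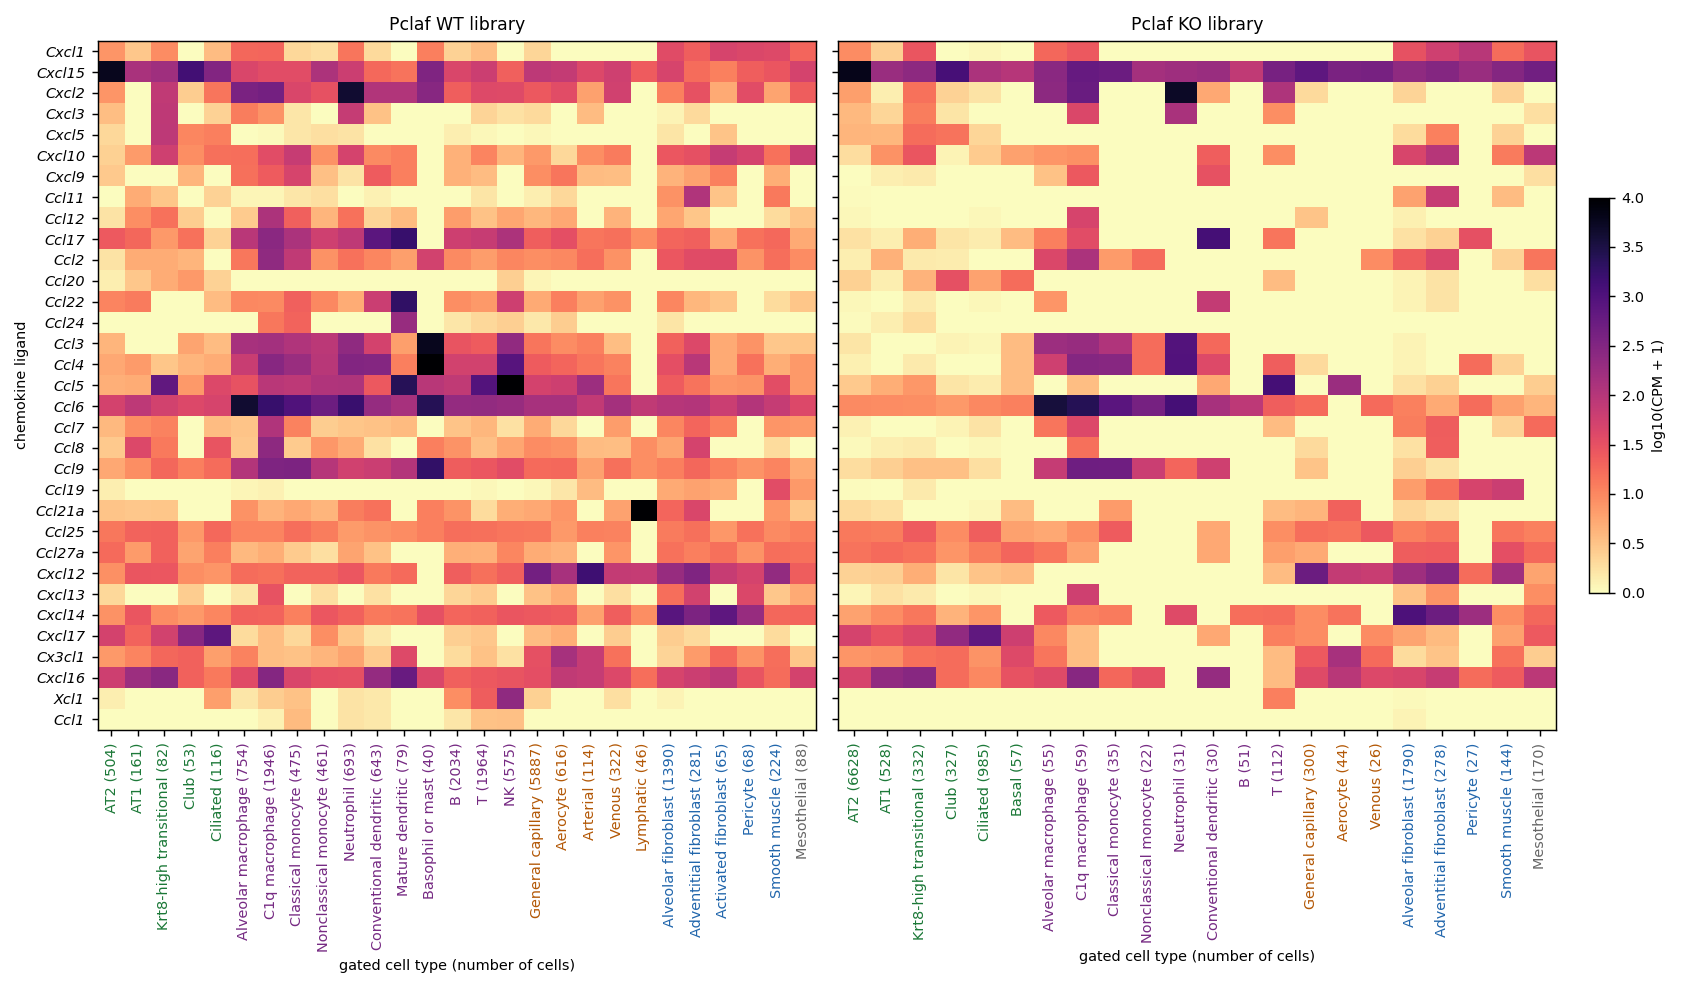
Heat maps of log10(CPM + 1) of the 33 chemokine ligands with at least 100 gated UMIs (rows) in gated cell types with at least 20 cells (columns, number of cells in parentheses), WT left and KO right. Column labels are coloured by lineage: green epithelial, purple immune, orange endothelial, blue mesenchymal and grey mesothelial. Cxcl15 is darkest in AT2 cells (6006 CPM in WT and 6417 in KO), its row is filled in every KO type, and the colour scale ends at 4.

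Several ligands sit next to each other on 2 chromosomes, with 10 members on chromosome 5 and 12 on chromosome 11. On chromosome 5 (GRCm38) the order along the plus strand was Cxcl5, Cxcl3, Cxcl15, Cxcl1 and Cxcl2, all ELR CXC ligands, and further on Cxcl9, Cxcl10 and Cxcl13. Some neighbours had unlike sources and others shared one. Cxcl15 led in AT2 cells, Cxcl2 in neutrophils, Cxcl1 in mesenchymal types and Cxcl5 in Krt8-high transitional cells. Cxcl3 shared its leading type with Cxcl5 in WT and with Cxcl2 in KO. On chromosome 11, Ccl2, Ccl7 and Ccl12 all led in C1q macrophages in both libraries. Windows around the start sites of 4 of the chromosome 5 neighbours are printed here to set side by side. They come from RefSeq for GRCm38.p6, with 250 bases before and 50 after the start in each. Capitals mark a kappa-B consensus, the sequence bound by NF-kappa-B factors.
Cxcl3, chr5:90785851-90786150, + strand: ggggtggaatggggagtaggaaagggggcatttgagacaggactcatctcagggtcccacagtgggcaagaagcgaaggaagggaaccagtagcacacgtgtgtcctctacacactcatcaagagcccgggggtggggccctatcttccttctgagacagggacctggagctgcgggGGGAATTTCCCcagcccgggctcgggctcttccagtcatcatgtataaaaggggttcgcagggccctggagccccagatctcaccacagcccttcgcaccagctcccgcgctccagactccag
Cxcl15, chr5:90794284-90794583, + strand: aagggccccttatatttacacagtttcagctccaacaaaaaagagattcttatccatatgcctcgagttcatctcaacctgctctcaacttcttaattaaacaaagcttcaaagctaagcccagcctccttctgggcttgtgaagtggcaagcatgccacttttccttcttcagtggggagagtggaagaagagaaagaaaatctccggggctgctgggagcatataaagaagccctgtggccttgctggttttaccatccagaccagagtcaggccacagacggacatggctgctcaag
Cxcl1, chr5:90890995-90891294, + strand: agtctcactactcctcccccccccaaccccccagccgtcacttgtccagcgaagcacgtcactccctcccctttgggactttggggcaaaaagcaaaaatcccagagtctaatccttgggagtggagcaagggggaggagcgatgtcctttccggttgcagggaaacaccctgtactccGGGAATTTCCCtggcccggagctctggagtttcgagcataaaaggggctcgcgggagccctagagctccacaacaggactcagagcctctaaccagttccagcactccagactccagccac
Cxcl2, chr5:90903649-90903948, + strand: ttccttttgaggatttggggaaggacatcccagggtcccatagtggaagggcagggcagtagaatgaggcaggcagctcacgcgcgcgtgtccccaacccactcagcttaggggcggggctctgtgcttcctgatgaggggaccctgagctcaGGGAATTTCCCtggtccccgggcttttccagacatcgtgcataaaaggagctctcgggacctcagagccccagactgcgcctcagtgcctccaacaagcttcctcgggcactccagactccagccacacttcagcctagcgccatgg
A kappa-B consensus lay 73 to 63 bases upstream of the start in Cxcl3, 71 to 61 in Cxcl1 and 97 to 87 in Cxcl2. The Cxcl15 window held no such match, which says only that these letters are not in it. It held TATAAA at 27 to 22 bases upstream, and Cxcl3 held TATAAA at 30 to 25. A window was at hand for 25 of the 35 members with UMIs, and 8 of them (32%) held a kappa-B match on either strand, against 9.55% of 27025 genes. TATAAA, on either strand, was in 9 (36%) against 15.7% of genes. A match is a description of letters and was not tested for binding.

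Among the ELR CXC ligands, Cxcl15, also called lungkine and known from lung epithelium, was by far the highest. AT2 cells, the surfactant-producing cells of the alveolus, held it at 6006 CPM in WT (504 cells) and 6417 CPM in KO (6628 cells), with a UMI in 97.0% and 98.1% of cells. Club cells of the airway followed at 1352 CPM in WT and 1230 in KO. Outside the epithelium the gene was found in every lineage, at levels that moved with those of the surfactant gene Sftpc. For each 100 Sftpc UMIs there were 4.79 Cxcl15 UMIs in WT AT2 cells and 4.20 in KO AT2 cells. In the 18 non-epithelial WT types with at least 100 Sftpc UMIs the same ratio lay between 3.57 and 8.52 (median 5.35), and in 16 KO types between 2.33 and 8.45 (median 4.59). Types with fewer Sftpc UMIs are left out of these ranges, among them WT lymphatic cells at 30 (10 Sftpc UMIs). Club cells stood apart at 1554 in WT, from only 56 Sftpc UMIs, and 71.1 in KO. Ciliated cells were at 187 in WT, where 1 cell held 222 of 237 Cxcl15 UMIs, and at 5.69 in KO.

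**Figure D2:**
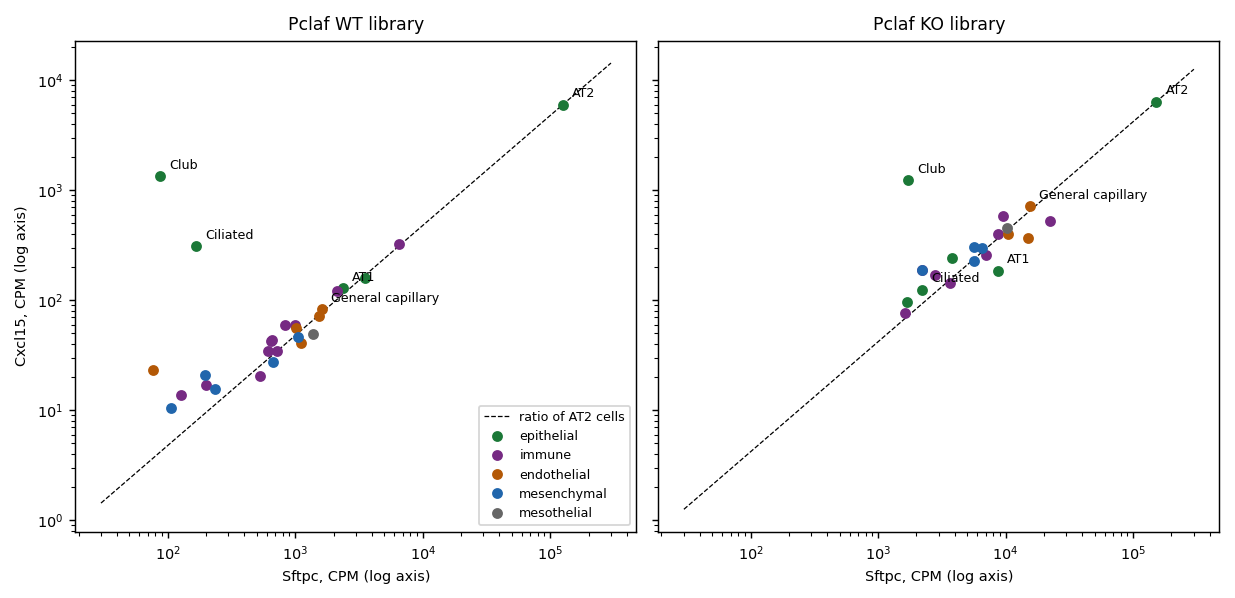
Cxcl15 against Sftpc, both in CPM on log axes, 1 point per gated cell type, WT left and KO right, with the dashed line at the ratio of AT2 cells. Most non-epithelial types lie near the AT2 line in both libraries, WT lymphatic cells lie above it (3 Cxcl15 and 10 Sftpc UMIs), and WT club cells (1352 CPM of Cxcl15) lie well above it.

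The other ELR ligands were sparse in epithelium and stroma. Cxcl2, a neutrophil attractant also called MIP-2, led in neutrophils themselves at 4283 CPM in WT and 5206 in KO, with a UMI in 72.0% of 693 and 67.7% of 31 cells. WT B cells, taken as a type that should lack it, had a Cxcl2 UMI in 1.92% of cells. C1q macrophages held Cxcl2 at 431 and 555 CPM and alveolar macrophages at 368 and 248. Cxcl3 was at 80.5 CPM in WT transitional cells and 70.1 in WT neutrophils, whose counting intervals overlap. Cxcl5 led in transitional cells at 84.5 CPM in WT and 15.8 in KO, but the WT value came from 2 of 82 cells. Cxcl1 was a stromal ligand at low level. Its highest WT value was 46.2 CPM in activated fibroblasts, with pericytes, smooth muscle and alveolar fibroblasts between 36.7 and 42.3 CPM, so that these neighbours do not differ beyond counting error. Among ranked KO types pericytes led for Cxcl1 at 93.7 CPM, but all 6 UMIs were in 1 of 27 cells. The 17 KO activated fibroblasts, too few to be ranked, held it at 383 CPM (58 UMIs). Neutrophils led for Cxcl3 in KO at 132 CPM, from 7 UMIs in 1 cell.

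Most inflammatory CC ligands were highest in myeloid or lymphoid cells, with Ccl11, highest in adventitial fibroblasts, and Ccl20, highest in club cells, as exceptions in both libraries. In KO, Ccl7 was also highest in mesothelial and Ccl8 in mesenchymal cells among lineages. Of their gated UMIs, 92.6% in WT and 72.3% in KO were in immune cells. Ccl6, a constitutive macrophage chemokine of mice, was the highest in alveolar macrophages at 4303 CPM in WT (754 cells) and 3537 CPM in KO (55 cells), with a UMI in 98.3% and 100% of cells. In WT the 40 cells with basophil or mast cell markers followed at 2465 CPM. C1q macrophages were at 1686 and 2487 CPM and neutrophils at 1596 and 1241 CPM. Ccl9, a close relative, was at 346 and 493 CPM in C1q macrophages and at 352 and 478 in classical monocytes. Among the 59 KO C1q macrophages 1 cell held 61 of 198 Ccl9 UMIs. The cells with basophil or mast cell markers, 40 in WT, were the strongest source per UMI of Ccl3 (6042 CPM), Ccl4 (9988 CPM) and Ccl9 (1883 CPM), with Ccl3 in 97.5% of them. Ccl3 and Ccl4, inflammatory ligands also called MIP-1 alpha and beta, were also in neutrophils, NK cells and both macrophage types, and in KO, where only 5 basophil or mast cells were found, neutrophils led for Ccl3 at 902 CPM and for Ccl4 at 959 CPM. Neutrophil Ccl3 was at 231 CPM in WT and Ccl4 at 309 CPM. The log2 ratios of KO over WT were 1.97 for Ccl3, given here without an interval, and 1.63 for Ccl4 (1.18 to 2.05). Cxcl2 in the same cells was at 0.28 (0.10 to 0.46). In KO only 19.4% of neutrophils had a Ccl3 UMI and 22.6% a Ccl4 UMI, against 67.7% with Cxcl2. The 31 KO neutrophils are too few for the call used further on.

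Ccl5, or RANTES, marked NK cells. It was at 10484 CPM in 575 WT NK cells, 98.8% of which had a UMI. WT mature dendritic cells followed at 2438 CPM. T cells held Ccl5 at 927 CPM in WT and 1277 in KO. In T cells it was uneven, with a UMI in 20.2% of WT and 12.5% of KO cells, and in KO the top 5% of cells held 91.1% of its UMIs. B cells, which should lack the gene, had a Ccl5 UMI in 3.20% of WT cells. Xcl1, a C-family ligand for XCR1 on cross-presenting dendritic cells, was at 233 CPM in WT NK cells and 22.3 CPM in WT T cells. The 15 KO NK cells, too few to be ranked, held Xcl1 at 396 CPM (17 UMIs) and Ccl5 at 12334 CPM, against 10.6 CPM of Xcl1 in KO T cells. A value of 656 CPM of Ccl5 in WT transitional epithelial cells rested on 1 of 82 cells, which held 325 of 326 UMIs.

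Dendritic cells carried the CCR4 ligands Ccl17 and Ccl22. Mature dendritic cells of WT (79 cells) held Ccl17 at 1697 CPM and Ccl22 at 1933 CPM. Conventional dendritic cells held Ccl17 at 754 CPM in WT (643 cells) and 1253 CPM in KO (30 cells). The KO value came from 10 cells, and 1 of them held 120 of 288 UMIs. Ccl22 was 63.5 CPM in conventional dendritic cells of WT, far under its level in mature ones. In KO, with 5 mature dendritic cells, conventional ones led for Ccl22 at 74.0 CPM, from 2 of 30 cells. Of the mature dendritic cells with Ccl22, 81.4% also had Ccl17, against 45% of those without. Both genes were common in these cells, with Ccl17 in 57 and Ccl22 in 59 of 79. Depth per cell was not held fixed, and whether they overlap more than 2 common genes would was not tested. Ccl24 also led in mature dendritic cells at 192 CPM, but all 70 UMIs were in 1 cell. Ccl1 had 128 UMIs in WT immune cells and its highest level in a type with at least 20 cells was 2.76 CPM.

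C1q macrophages, the macrophages with complement C1q genes, led in WT for the monocyte attractants Ccl2, Ccl7, Ccl8 and Ccl12. In WT (1946 cells) their levels were 232, 114, 245 and 120 CPM. In KO only 59 such cells were found, and the levels there were 127 CPM for Ccl2, 39.8 for Ccl7, 14.9 for Ccl8 and 47.3 for Ccl12. All 4 values were lower in KO, and Ccl8 was by then highest in adventitial fibroblasts at 21.4 CPM. The log2 ratio of KO over WT was -0.87 for Ccl2 (95% counting interval -1.30 to -0.47), -1.52 for Ccl7 (-2.33 to -0.81), -1.35 for Ccl12 (-2.08 to -0.70) and -4.03 for Ccl8 (-5.48 to -2.91). Ccl17 was lower as well, at 259 CPM in WT and 34.8 in KO (log2 ratio -2.89, -3.77 to -2.15), and so were Ccl5 (-5.21) and Cxcl10 (-2.24). Of the ligands with an interval given, only Ccl8 and Ccl17 lay wholly past 2-fold, and those of Ccl2, Ccl7 and Ccl12 reached inside it. Other ligands of the same cells had log2 ratios of 0.38 for Ccl3, 0.11 for Ccl4, 0.56 for Ccl6, 0.51 for Ccl9, 0.37 for Cxcl2 and -0.12 for Cxcl16. For Ccl9 1 KO cell held 61 of 198 UMIs. The 59 KO cells are too few for the call used further on, so no share over all genes stands beside these ratios. Cxcl3 was at 6.81 CPM in WT and 42.3 in KO, from 17 KO UMIs. Whether these differences between ligands exceed the spread between mice was not tested, as each rests on 1 library per genotype.

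Ccl8 was made by few cells. It was found in 9.10% of WT C1q macrophages, and the top 5% of cells held 95.7% of its 2838 UMIs. With cells thinned to 1000 UMIs and shallower ones left out, Ccl8 was in 6.24% of 1812 WT cells and in 2% (1 of 50) of KO cells, whose interval of 0.0506% to 10.6% spans the WT share. Thinned Ccl2 was in 12.7% of WT and 18% of KO cells. The KO share rests on 50 cells, so whether fewer KO cells carried Ccl2 cannot be told from it. Neighbouring genes were found together. Ccl2 had a UMI in 69.5% of WT C1q macrophages with Ccl7 and in 21.7% of those without, and Ccl3 in 50.9% of those with Ccl4 against 17.4% without. Depth per cell was not held fixed in this count, and its part was not tested. In alveolar macrophages Ccl6 had a log2 ratio of -0.28 (-0.36 to -0.21) and Cxcl2 of -0.57 (-0.86 to -0.30), while Ccl2 was at 12.3 CPM in WT and 41.7 in KO, the other way from C1q macrophages.

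**Figure D3:**
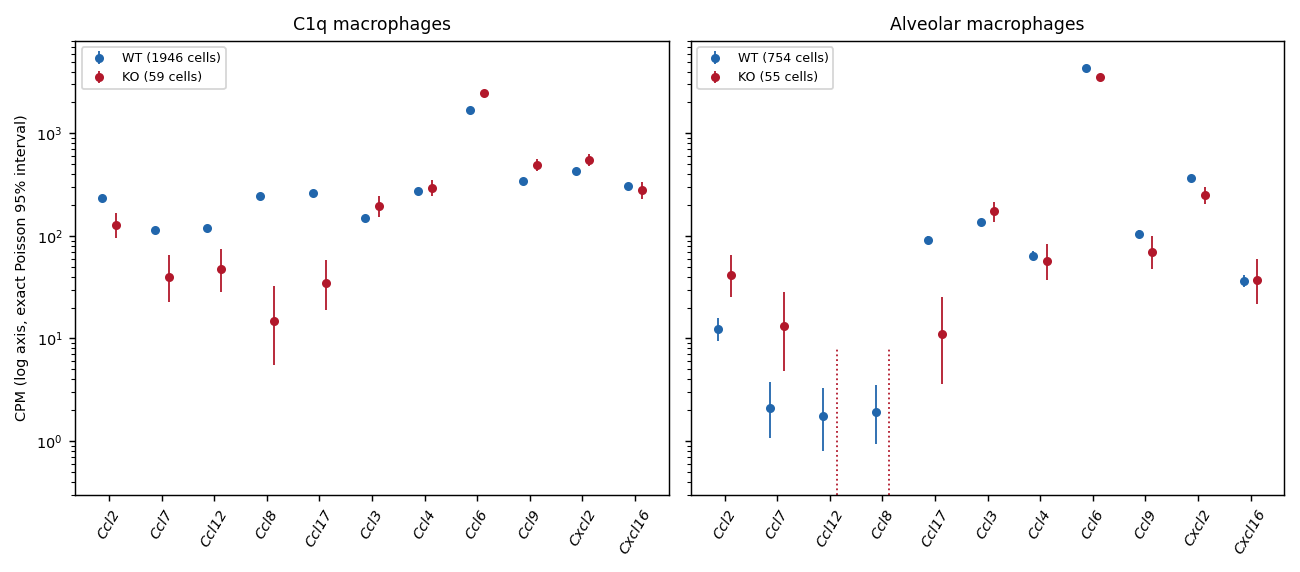
CPM on a log axis of 11 chemokine ligands in C1q macrophages (left) and alveolar macrophages (right), WT in blue and KO in red, with exact Poisson 95% intervals. In C1q macrophages Ccl2, Ccl7, Ccl12, Ccl8 and Ccl17 are lower in KO, while Ccl3, Ccl4, Ccl6, Ccl9, Cxcl2 and Cxcl16 lie close together. Dotted lines mark values of 0 with the upper interval limit.

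The interferon-induced ligands Cxcl9 and Cxcl10, which attract CXCR3-bearing T and NK cells, were low and scattered. Cxcl9 reached 46.9 CPM in classical monocytes of WT, and 23.3 and 24.9 CPM in C1q macrophages. Its highest KO value was 30.5 CPM in conventional dendritic cells, from 7 UMIs. Cxcl10 was at 69.3 CPM in WT activated fibroblasts, 68.4 in classical monocytes and 65.4 in mesothelial cells, which do not differ beyond counting error. In KO it was at 87.8 CPM in mesothelial cells, 15.3% of which had a UMI, and at 96.7 CPM in adventitial fibroblasts, where 1 cell held 118 of 140 UMIs.

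Homeostatic ligands came from vessels and stroma. Cxcl12, the CXCR4 ligand that retains leukocytes and guides vessel growth, was highest in arterial endothelium at 1454 CPM in WT (114 cells). General capillary cells held it at 445 CPM in WT and 535 in KO, and adventitial fibroblasts at 336 and 304 CPM. Ccl21a, a CCR7 ligand, was at 13028 CPM in the 46 WT lymphatic cells, with a UMI in 82.6% of them, and at or under 43.2 CPM in every other WT type. The 7 KO lymphatic cells held 396 UMIs of it. Cxcl14 was a fibroblast ligand, at 818 CPM in WT and 1067 in KO alveolar fibroblasts. Ccl19, also a CCR7 ligand, was at 34.8 and 63.8 CPM in smooth muscle. Ccl11, or eotaxin, an inflammatory CC ligand, was likewise stromal, at 113 and 67.0 CPM in adventitial fibroblasts and at or under 12.2 CPM in other types with at least 20 cells. Cxcl13, a B cell attractant, was at 52.1 CPM in WT adventitial fibroblasts and led in KO in C1q macrophages at 57.3 CPM, all 23 UMIs of which were in 1 cell.

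In the airway, Cxcl17, a mucosal chemokine, was highest in ciliated cells at 737 CPM in WT and 678 in KO, with a UMI in 86.2% and 83.9% of cells. Club cells followed at 275 CPM in WT and 228 in KO. Ccl20, a CCR6 ligand, had its highest level in club cells at 6.22 CPM in WT and 30.9 in KO. The WT value came from 1.89% of 53 cells, and its counting interval overlapped that of transitional cells at 4.02 CPM. The KO value came from 5 of 327 cells, and 1 of them held 97 of 143 UMIs. Ccl25 and Ccl27a were low in all types, the highest values being 24.6 CPM in KO venous cells (3 UMIs) and 32.5 CPM in KO smooth muscle. The membrane-bound ligands differed in source. Cx3cl1, or fractalkine, led in aerocytes, the gas-exchange capillary cells, at 141 and 133 CPM, and Cxcl16, the CXCR6 ligand, was shared by mature dendritic cells (565 CPM in WT), C1q macrophages (304 and 279 CPM), transitional cells (264 and 282 CPM) and AT1 cells (171 and 222 CPM).

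Differences between the libraries were then taken within 8 types that had at least 100 cells in each. A member with at least 20 UMIs was called past 2-fold where the whole 95% counting interval of the KO over WT ratio lay beyond 2-fold. Of 146 member and type pairs, 7 were higher in KO (3 members) and 49 lower (18 members). The counts are set beside the share of all genes called in the same type.

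In AT2 cells 0 of 24 members were higher and 8 lower, against 0.142% and 1.95% of all genes, and the median log2 ratio was -0.62 against -0.12 over all genes. Their main ligands lay within 2-fold. Cxcl15 had a log2 ratio of 0.10 (0.07 to 0.12), Cxcl16 was at 59.1 CPM in WT and 47.4 in KO, and Cxcl17 at 50.9 and 47.9. The 8 lower members were Ccl3, Ccl4, Ccl6, Ccl7, Ccl9, Ccl17, Ccl22 and Cxcl12, none of which leads in epithelium. Ccl6 went from 50.2 to 8.54 CPM and Ccl17 from 24.4 to 0.755 CPM, but 1 WT cell held 46 of 69 UMIs of Ccl17, without which WT was at 8.16 CPM, and 1 WT cell held 24 of 27 UMIs of Ccl22. Without the highest cell of each library Ccl22 and Ccl7 fell under the minimum of 20 UMIs, and Ccl3 did not pass with TMM totals.

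In AT1 cells 0 of 10 members were higher and 2 lower, against 0.13% and 0.892% of genes, with a median of -0.03 against -0.02. Cxcl16 (171 and 222 CPM), Cxcl15 (130 and 187 CPM) and Cxcl17 (19.4 and 29.4 CPM) lay within 2-fold. For each 100 Sftpc UMIs, AT1 cells held 5.49 Cxcl15 UMIs in WT and 2.13 in KO. The part of RNA from other cells in their Cxcl15 was not tested. Ccl6 was lower (85.4 and 8.28 CPM) and so was Ccl8, for which 1 WT cell held 20 of 21 UMIs.

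In ciliated cells 0 of 13 were higher and 5 lower, against 0.0407% and 1.03% of genes, with a median of -0.48 against -0.05. Cxcl17, their own ligand, had a log2 ratio of -0.12 (-0.25 to 0.01), and Ccl25 was at 17.2 and 21.5 CPM. The lower members were Cxcl15, Cxcl10, Ccl5, Ccl6 and Ccl8. Of these only Ccl6 (47.5 and 8.72 CPM) was not carried by a single WT cell. For Cxcl15 (313 and 125 CPM) 1 WT cell held 222 of 237 UMIs, and with the highest cell of each library left out the log2 ratio was 2.34, the other way.

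In general capillary cells 1 of 25 members was higher and 9 lower, against 1.32% and 1.26% of genes, with a median of -2.96 against -0.14. Cxcl12, Cx3cl1 (30.7 and 23.7 CPM) and Cxcl16 (32.4 and 37.1 CPM) lay within 2-fold, and Cxcl12 had a log2 ratio of 0.27 (0.13 to 0.39). The lower members were Ccl2, Ccl3, Ccl4, Ccl5, Ccl6, Ccl9, Ccl17, Cxcl2 and Cxcl9, and 5 of them had no UMI in the 300 KO cells. Against a floor of 3 UMIs set for KO, Ccl5 was 16.3-fold lower and Ccl17 7.02-fold lower. These folds are not interval limits, which were log2 ratios of -3.73 for Ccl5 and -2.51 for Ccl17. Without its highest cell, neither Ccl2 nor Cxcl9 stayed past 2-fold. With Scrublet doublets left out, Ccl5, Ccl6 and Ccl17 stayed and Ccl2, Ccl3, Ccl4, Ccl9, Cxcl2 and Cxcl9 did not, and with cells thinned to 1000 UMIs only Ccl5 and Ccl6 of the 9 stayed. With clusters in place of the marker gate the log2 ratio of Ccl6 was -0.11, against -3.01 in gated cells.

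In alveolar fibroblasts 1 of 25 was higher and 12 lower, against 0.562% and 2.83% of genes, with a median of -0.57 against -0.07. Cxcl14 had a log2 ratio of 0.38 (0.33 to 0.44) and Cxcl12 was at 191 and 165 CPM. The lower members were Ccl3, Ccl4, Ccl5, Ccl6, Ccl8, Ccl9, Ccl12, Ccl17, Ccl21a, Ccl22, Cxcl2 and Cxcl13. Ccl4 went from 32.5 CPM (160 UMIs) to 0.206 CPM (2 UMIs), the widest gap of that type. Cxcl13, a stromal ligand in WT, was at 15.4 and 2.26 CPM. Without the highest cell Ccl12 and Ccl22 fell under the minimum of 20 UMIs, and for Ccl4 1 WT cell held 113 of 160 UMIs.

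In adventitial fibroblasts 2 of 20 were higher and 7 lower, against 0.327% and 1.02% of genes, with a median of -0.12 against -0.09. Cxcl14 (361 and 509 CPM), Cxcl12 and Ccl11 lay within 2-fold, and so did Ccl2 (36.4 and 42.8 CPM) and Ccl7 (18.7 and 22.1 CPM). Ccl8, at 48.2 and 21.4 CPM (log2 ratio -1.17), was not called, since its interval reached inside 2-fold. The lower members were Ccl3, Ccl4, Ccl6, Ccl17, Ccl21a, Cxcl2 and Cxcl13. Against a floor of 3 UMIs set for KO, Ccl4 was 44.6-fold and Ccl3 19.4-fold lower, which are not interval limits. The WT UMIs of Ccl4 lay in only 7 of 281 cells and those of Ccl3 in 5. Cxcl10 was higher (31.4 and 96.7 CPM, log2 ratio 1.62), but without the highest cell of each library its log2 ratio was -0.44. Ccl17, Ccl21a and Cxcl2 fell under the minimum of 20 UMIs without their highest cells. Cxcl13 was at 52.1 and 6.91 CPM.

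In smooth muscle 1 of 11 was higher and 2 lower, against 0.362% and 0.576% of genes, with a median of -0.27 against -0.12. Cxcl12 (215 and 159 CPM), Cxcl1 (39.5 and 15.6 CPM) and Ccl19 (log2 ratio 0.87, 0.23 to 1.53) did not pass. The lower ones were Ccl6 at 70.6 and 5.20 CPM and Ccl5 at 33.9 CPM in WT and 0 in KO. The interval limit of Ccl5 nearest to no change was a log2 ratio of -2.74. Its 36 WT UMIs lay in 6 of 224 cells, and it fell under the minimum of 20 UMIs without its highest cell.

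In T cells 2 of 18 were higher and 4 lower, against 0.5% and 0.886% of genes, with a median of -1.20 against -0.34. Ccl5, their own main ligand, had a log2 ratio of 0.46 (0.33 to 0.60). Its 484 KO UMIs were in 14 of 112 cells, and 1 of these cells held 166. The lower members were the myeloid and dendritic ligands Ccl3, Ccl6, Ccl9 and Ccl17, with Ccl6 at 219 CPM in WT and 21.1 in KO. Cxcl2 was higher at 39.6 and 116 CPM, but 1 KO cell held 36 of 44 UMIs and its log2 ratio without the highest cells was -0.58. Ccl3 did not pass without them, and Ccl17 not with TMM totals. With cells thinned to 1000 UMIs none of the 4 lower calls stayed, and with clusters or with the gene limits read as UMIs only that of Ccl6 did.

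Cxcl15 was the only member higher in more than 1 type. It was at 59.6 CPM in WT and 404 in KO T cells, 83.6 and 721 in general capillary cells, 46.9 and 230 in alveolar fibroblasts, 15.7 and 303 in adventitial fibroblasts, and 27.3 and 297 in smooth muscle. The log2 ratios were 2.76, 3.11, 2.29, 4.27 and 3.44. None of these types is epithelial, and the Sftpc level moved with it, from 1610 to 15632 CPM in general capillary cells and from 828 to 8658 CPM in T cells. The share of T cells with a Cxcl15 UMI was 4.28% in WT and 29.5% in KO, at median depths of 2660 and 3069 UMIs. With Scrublet doublets left out the log2 ratio in T cells was 0.96 and no longer passed.

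The pairs can be read by whether the type belongs to the lineage that leads for the gene. Where it did in both libraries (34 pairs), 1 was higher, 5 lower and 28 not past 2-fold, with a median log2 ratio of -0.20. The higher call (Cxcl2) and 4 of the lower ones (Ccl3, Ccl6, Ccl9 and Ccl17) were in T cells. These count here because T cells belong to the immune lineage. The other lower call was Cxcl15 in ciliated cells. Without the highest cell of each library, Cxcl2 in T cells (-0.58) and Cxcl15 in ciliated cells (2.34) turned direction. Where it did in 1 library (13 pairs), 0 were higher and 3 lower, with a median of -0.10. Where another lineage led (99 pairs), 6 were higher, 41 lower and 52 not past 2-fold, with a median of -1.59. The leading lineage was taken from these same libraries, so this split is a description.

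**Figure D4:**
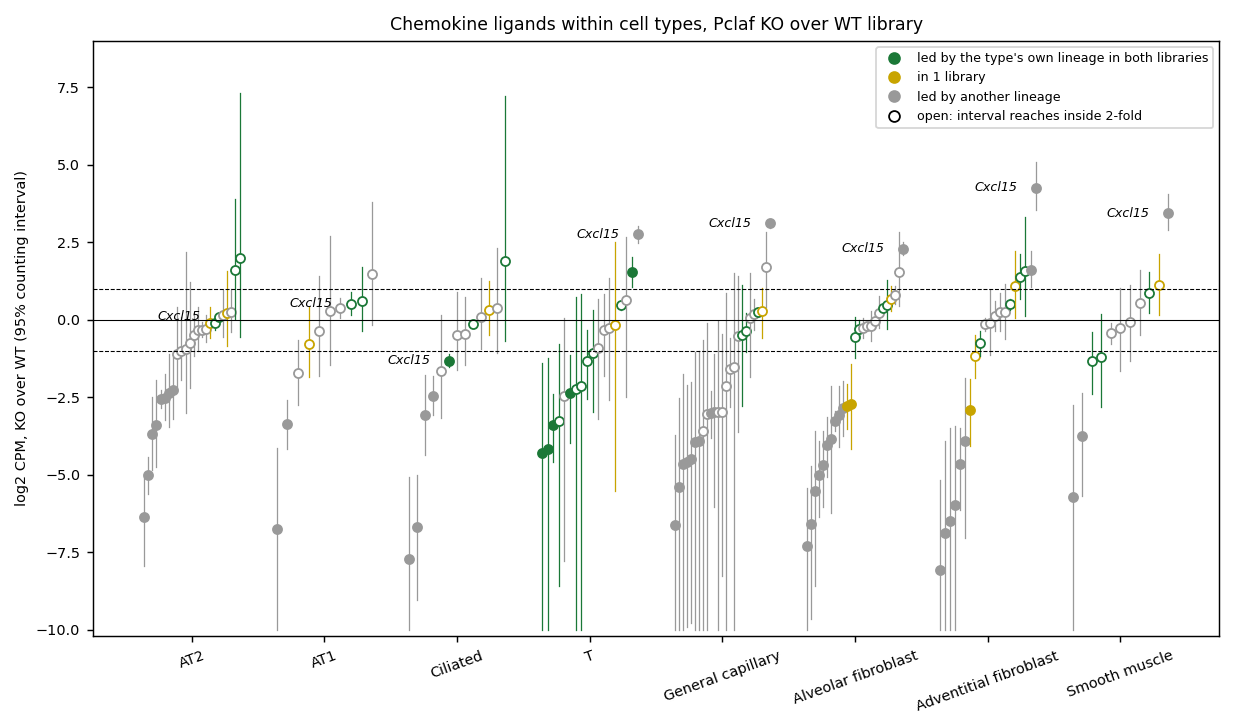
Log2 ratio of KO over WT CPM (points) with 95% counting intervals (lines) of each chemokine ligand with at least 20 UMIs in the 8 types compared, ordered by ratio within a type. Green points are led by the type's own lineage in both libraries, ochre points in 1 library and grey points by another lineage, filled points lie past 2-fold (dashed lines), and intervals are drawn to -10 at most. Filled grey points make up most of the lower calls (41 of 49), and Cxcl15 is the top filled point in T cells, capillary cells, fibroblasts and smooth muscle.

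Over all genes in the 8 types together, 0.436% of gene and type pairs were higher and 1.38% lower. By group, 38 of 58 inflammatory CC pairs were lower and 0 higher. Of 45 homeostatic and mucosal pairs 5 were lower and 0 higher, and of 15 pairs of membrane-bound and XC ligands none passed in either direction. Of 19 ELR CXC pairs 6 were higher and 4 lower, and of 9 interferon-induced pairs 1 was higher and 2 lower. Ccl6 was lower in all 8 types, Ccl3 and Ccl17 in 5 each, and Ccl4, Ccl5 and Ccl9 in 4 each.

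Immune markers moved the same way as these CC ligands. The sum of the 8 immune markers, all 8 of them detected in both libraries except in KO general capillary cells (6), was 508 CPM in WT and 155 in KO general capillary cells, 212 and 22.5 CPM in alveolar fibroblasts, and 230 and 149 CPM in AT2 cells. Outside the immune lineage Ccl6 lay between 40.4 and 145 CPM in 16 WT types (median 75.7) and between 0 and 16.5 CPM in 14 KO types (median 8.41). The part of RNA from other cells in the lower calls was not tested. In sums over gated cells, fewer cells carrying a gene and less RNA per cell cannot be told apart.

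The share of cells with a UMI was also compared with cells thinned to 1000 UMIs each, leaving out shallower cells. These were 742 of 5887 WT and 28 of 300 KO general capillary cells, and 271 of 1390 WT and 70 of 1790 KO alveolar fibroblasts. Of 208 pairs with any UMI in the 8 types, the KO share lay above the WT share with no overlap of intervals in 6 and below it in 17. This count was not made over all genes, so it has no background share beside it and is a description only. The 6 were Cxcl15 in T cells, capillary cells and both fibroblast types, and Cxcl14 (45.4% and 51.3%) and Ccl27a (0.804% and 2.73%) in alveolar fibroblasts. Ccl6 was below in 6 types, from 8.59% to 0.735% of general capillary cells. In AT2 cells the thinned share with Cxcl15 was 91.3% in WT and 92.9% in KO.

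Receptors were described from a fixed list of 18 signalling and 5 atypical receptors. Neutrophils led for Cxcr2, the receptor of ELR ligands, at 470 CPM in WT and 583 in KO. Classical monocytes led for Ccr2, the receptor of Ccl2, Ccl7 and Ccl12, at 831 and 729 CPM. T cells led for Cxcr6, the receptor of Cxcl16, at 132 and 282 CPM, and conventional dendritic cells for Xcr1 at 170 and 218 CPM. Mature dendritic cells of WT held Ccr7 at 965 CPM. Atypical receptors, which take up chemokines without classical signalling, differed in source. Ackr3 led in venous cells at 631 and 747 CPM, Ackr1 in venous cells at 106 and 49.3 CPM, and Ackr2 in aerocytes at 155 and 133 CPM. Ackr4 was low, at 23.1 CPM in WT arterial and 26.8 CPM in KO general capillary cells, and Ccrl2 led in neutrophils at 420 and 752 CPM. In T cells 1 of 18 receptors was higher in KO (Ccr10) and 1 lower (Cxcr4, 111 and 29.0 CPM), beside the 0.5% and 0.886% of all genes given above. Ccr10 had 18 WT and 7 KO UMIs, the latter in only 0.893% of 112 KO T cells. In general capillary cells 0 of 15 were higher and 2 lower (1.32% and 1.26% of all genes), in alveolar fibroblasts 0 of 6 and 3 (0.562% and 2.83%), in AT2 cells 0 of 8 and 1 (0.142% and 1.95%), and in ciliated cells 0 of 4 and 1 (0.0407% and 1.03%). None of 1 receptor in AT1 cells, 3 in adventitial fibroblasts and 1 in smooth muscle passed in either direction.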

How the data were processed

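Per the labels, the authors made the deposited UMI counts per gene and cell with Cell Ranger 3.1.0 (STAR, GRCm38), while the matrix headers name version 5.0.0. The values are whole counts, not normalised. Cells with 200 to 5000 genes and under 20% mitochondrial UMIs were kept. The study's methods limit the number of RNAs detected, which can be read as genes or as UMIs, and the gene reading was used. No ambient RNA was subtracted, and doublets were kept in the main values.

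A cell was given a lineage when at least 3 of 8 markers had a UMI and at least 2 more than of any other lineage, and a type when at least 2 of 6 type markers had a UMI and more than of any other type of that lineage. Mesothelial cells were taken first, from at least 3 of their markers with no more than 3 immune or endothelial ones. UMIs were summed per type and library and given per 1e+06 UMIs (CPM) with exact Poisson 95% intervals, shares with Clopper-Pearson intervals, and ratios with the exact conditional interval of 2 Poisson counts. Where 1 sum was 0, 0.5 UMIs were added to both. With 1 library per genotype there is no test, and intervals cover counting error only. Types with at least 100 cells in each library and genes with at least 20 UMIs were compared.

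Members with at least 100 gated UMIs are named at their leading type, and in each compared type those past 2-fold and the 3 highest in either library. Values named outside this rule were chosen after they were seen. Members and lists were chosen with earlier results of these data known. Alternatives changed the gates, filters, doublets (Scrublet in scanpy 1.11.5), clustering (leidenalg 0.10.2), scaling (TMM, edgeR 4.0.16), limits and thinning. Scripts used Python 3.11.15, numpy 2.4.6, scipy 1.17.1 and pandas 2.3.3, and were tested on simulated data.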

Additional observations from a re-analysis of the deposited data

Results flagged for a closer look

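For 3 ligands the KO over WT ratio was past 2-fold in opposite directions in different cell types. Each direction rests on 1 library per genotype, and the difference between types was not tested.

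Cxcl15 had a log2 ratio of -1.32 in ciliated cells, against 2.76 in T cells, 3.11 in general capillary cells, 2.29 in alveolar fibroblasts, 4.27 in adventitial fibroblasts and 3.44 in smooth muscle. In the ciliated cells 1 WT cell held 222 of 237 UMIs.

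Cxcl10 had a log2 ratio of -3.08 in ciliated cells and 1.62 in adventitial fibroblasts. A single WT cell held 9 of 11 UMIs in the first, and a single KO cell 118 of 140 in the second.

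Cxcl2 had a log2 ratio of 1.55 in T cells, where 1 KO cell held 36 of 44 UMIs. It was -4.60 in general capillary cells, -3.07 in alveolar fibroblasts and -6.49 in adventitial fibroblasts, the last with 0 KO UMIs and 0.5 UMIs added to both sums.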

How the results depend on the processing

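Of 792 values of the 56 pairs past 2-fold under the alternatives, 726 moved by less than counting error, 61 moved further, 5 turned direction and 724 stayed past 2-fold. Pairs that fell under the UMI minimum, or whose type was lost, gave no value, so these counts leave out such losses. Settings that changed only the UMI minimum reuse the main sums, so their values could not move. The 724 apply no minimum to values without the highest cell. The count of higher pairs was 4 in place of 7 with a lineage gate of 4 markers and a margin of 3, which left too few KO T cells to compare. The count of lower pairs was 21 in place of 49 with the gene limits read as UMIs and 10 with cells thinned to 1000 UMIs. Shares below WT numbered 10 in place of 17 when thinned to 500 UMIs, and without thinning 20 shares lay above and 38 below. Shares were not counted over all genes. Cxcl15 in ciliated cells turned to 2.09 with a type gate of 3 markers, 0.59 with clusters and 2.34 without the highest cell of each library. Without that cell, an alternative chosen after seeing the data, Cxcl2 in T cells was -0.58, Cxcl10 in adventitial fibroblasts -0.44, and 38 of 56 pairs stayed past 2-fold, 12 of the other 18 having under 20 UMIs left. Cxcl15 in T cells was 0.96 without Scrublet doublets, which also ended 6 of the 9 lower calls in general capillary cells, and Ccl6 in general capillary cells -0.11 in clusters. Scrublet marked 7.76% of WT and 2.70% of KO cells, against 24.1% and 12.5% expected at these cell numbers, so most expected doublets stayed in. TMM moved the median of all genes by 0.03 to 0.17 (log2). Apart from fewer types or UMIs where named, the cause was not tested. No paired analysis was possible because each genotype has 1 library, and the shared number 1 was given in accession order.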

Other observations

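Pf4, a platelet CXC ligand whose symbol lies outside the naming rule, was at 257 CPM in C1q macrophages of WT and at 368 in those of KO. No lineage was given to 7714 WT cells, with a median of 774 UMIs, or to 2457 KO cells, whose median was 1782.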
